A study of Mus musculus with 34 samples.

Results

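The DNA damage signalling and repair genes described here are 42 mouse genes, taken from a list of names and sorted by role, out of 21938 protein-coding genes. They comprise the kinases and adaptors that signal DNA damage, the p53 axis, and the machinery of homologous recombination, Fanconi anaemia repair, end joining, single-strand break and base excision repair, mismatch repair and nucleotide excision repair. The value of a gene was its H3K4me3 signal, the mean normalized coverage within 1000 bp of the gene's annotated 5′ end (GENCODE M21, mm10). The list is of names and has no threshold on a measured value, although it was drawn up with earlier results of these data known. H3K4me3 was profiled by CUT&RUN, in which protein A-MNase is brought to an antibody on unfixed nuclei and releases the bound DNA. The nuclei came from villi cells scraped from the small intestine, which the study's methods describe as normal-appearing, of 2 wild-type C57BL/6J mice and 2 ApcMin/+ mice of the same strain background. All were 5 weeks old by the labels, and the methods give a slightly older age. The Min allele is a germline mutation of Apc, so the ApcMin/+ mice carried it in every cell and not in the epithelium alone. The question was whether H3K4me3 at these promoters differed between the genotypes.

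H3K4me3 marks the nucleosomes flanking active or poised start sites, and the level at a promoter reflects how often it is used only in part. ATM and ATR are kinases that respond to double-strand breaks and to replication stress. They act through the checkpoint kinases CHK1 and CHK2 and through p53, whose activity is held down by MDM2 and MDM4. Breaks are then mended by homologous recombination, which needs BRCA1, PALB2 and BRCA2, or by end joining, which needs the Ku heterodimer, DNA-PKcs, XRCC4 and ligase IV. The intestinal epithelium renews itself constantly from dividing crypt cells, while villus cells have left the cell cycle.

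The 4 libraries held 1430000 and 4790000 tags (wild type, replicates 1 and 2) and 3700000 and 5470000 tags (ApcMin/+, replicates 1 and 2). ApcMin/+ replicate 1 stood apart, with 43.2% of its signal in 55851 enriched regions against 11.9% to 22.6% in the other libraries. The regions were called on the mean of the 4 libraries, so this library weighed most in their choice and its share is raised by that. The mean signal of ApcMin/+ replicate 1 over all promoters, which does not depend on the regions, was 6.85 against 1.76 to 2.59 in the others. Differences between genotypes are therefore given both as deposited and after each library was centred on its median tested promoter, for single genes outside the main examples after centring alone. The tissue label was matched by 14 of 16 enterocyte markers with a mean signal of at least 2, led by Vil1 with 14.2. None of 8 secretory, 10 immune or 10 mesenchyme and endothelium markers reached 2, and their medians were 1.11, 0.77 and 0.50. All 12 proliferation markers reached 2, with a median of 5.58, and 3 of 6 crypt markers did. In bulk chromatin, fewer cells of a type and less signal per cell cannot be told apart. The part of cell composition in the results below was not tested.

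The promoters on which the results turn are printed first. They include marked promoters and, at the Mdm4 gene 5′ end, a single window with almost no mark. For Mdm4 the marked inner start is printed as well, and for Xrcc6 the inner start alone. Each sequence runs 5′ to 3′ on the gene's own strand from 250 bases before to 50 after the RefSeq start (GRCm38.p6). Capitals mark matches, on either strand, to the CCAAT box, to the GC box GGGCGG, to the TATA-type element TATAAA, to the ETS-type site CCGGAAG, to the palindrome-like motif GCATGCG, to the cAMP-response-type site TGACGTC and to the E2F-type sites TTCCCGC as well as TTGGCGC. In Atm the CCGGAAG match and an E2F-type match share a base, and in Brca2 the palindromic TGACGTC matches on both strands overlap. They lie at chr11:69580109-69580408, plus strand (Trp53), chr9:53536622-53536921, minus strand (Atm), chr11:101551906-101552205, minus strand (Brca1), chr7:122132897-122133196, minus strand (Palb2), chr5:150522371-150522670, plus strand (Brca2) and chr15:82016119-82016418, plus strand (Xrcc6). For Mdm4 the window at the gene 5′ end is chr1:133030538-133030837, minus strand, and that at the inner start is chr1:133025367-133025666, minus strand.
Trp53: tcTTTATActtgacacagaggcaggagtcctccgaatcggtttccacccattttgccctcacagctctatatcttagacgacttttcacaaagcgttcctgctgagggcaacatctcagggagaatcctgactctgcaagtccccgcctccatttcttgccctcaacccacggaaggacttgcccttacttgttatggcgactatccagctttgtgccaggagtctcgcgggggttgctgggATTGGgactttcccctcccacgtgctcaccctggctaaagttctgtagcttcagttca
Atm: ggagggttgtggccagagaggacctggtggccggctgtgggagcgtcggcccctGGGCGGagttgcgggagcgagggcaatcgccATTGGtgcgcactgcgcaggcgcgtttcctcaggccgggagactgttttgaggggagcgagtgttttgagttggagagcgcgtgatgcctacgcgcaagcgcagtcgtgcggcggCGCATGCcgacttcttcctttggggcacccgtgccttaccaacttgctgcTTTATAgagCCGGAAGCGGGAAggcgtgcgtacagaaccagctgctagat
Brca1: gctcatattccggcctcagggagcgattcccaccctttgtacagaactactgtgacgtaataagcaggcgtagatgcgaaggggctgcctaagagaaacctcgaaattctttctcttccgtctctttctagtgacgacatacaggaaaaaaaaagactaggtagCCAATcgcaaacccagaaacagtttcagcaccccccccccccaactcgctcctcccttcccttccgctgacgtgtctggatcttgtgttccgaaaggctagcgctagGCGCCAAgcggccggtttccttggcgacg
Palb2: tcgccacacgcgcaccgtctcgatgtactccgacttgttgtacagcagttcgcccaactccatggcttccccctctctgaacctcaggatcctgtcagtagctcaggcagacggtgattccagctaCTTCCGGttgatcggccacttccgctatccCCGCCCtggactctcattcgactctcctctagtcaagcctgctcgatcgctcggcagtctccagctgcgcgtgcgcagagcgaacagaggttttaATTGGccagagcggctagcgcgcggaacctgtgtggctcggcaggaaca
Brca2: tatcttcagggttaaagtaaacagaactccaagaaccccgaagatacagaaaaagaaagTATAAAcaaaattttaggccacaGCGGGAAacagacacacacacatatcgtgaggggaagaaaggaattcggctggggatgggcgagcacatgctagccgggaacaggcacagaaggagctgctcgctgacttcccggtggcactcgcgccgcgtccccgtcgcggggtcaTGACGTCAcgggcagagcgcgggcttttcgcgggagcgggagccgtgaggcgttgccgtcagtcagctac
Mdm4, gene 5′ end: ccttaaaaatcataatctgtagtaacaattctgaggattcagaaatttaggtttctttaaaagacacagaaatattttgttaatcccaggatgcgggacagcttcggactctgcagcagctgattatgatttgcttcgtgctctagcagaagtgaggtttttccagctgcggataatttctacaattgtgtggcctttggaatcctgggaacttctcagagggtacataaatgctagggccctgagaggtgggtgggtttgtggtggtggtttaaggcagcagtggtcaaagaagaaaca
Mdm4, inner start: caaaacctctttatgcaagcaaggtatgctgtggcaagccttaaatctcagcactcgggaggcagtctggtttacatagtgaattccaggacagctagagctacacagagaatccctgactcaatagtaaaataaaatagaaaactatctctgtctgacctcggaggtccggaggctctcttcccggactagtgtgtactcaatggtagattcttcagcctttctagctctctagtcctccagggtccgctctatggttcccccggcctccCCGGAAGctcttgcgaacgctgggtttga
Xrcc6, inner start: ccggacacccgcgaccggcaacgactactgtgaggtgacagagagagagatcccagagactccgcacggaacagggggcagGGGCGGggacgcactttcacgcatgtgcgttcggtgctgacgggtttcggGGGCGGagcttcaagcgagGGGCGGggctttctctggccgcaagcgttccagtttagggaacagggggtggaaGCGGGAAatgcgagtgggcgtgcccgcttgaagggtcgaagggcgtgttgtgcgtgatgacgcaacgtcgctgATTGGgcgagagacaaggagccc

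Of the windows shown, that at the Mdm4 gene 5′ end was the only one with no match and had the lowest ratio of observed to expected CpG, 0.31. At the inner Mdm4 start, with its single CCGGAAG, the ratio was 0.49, and at the inner Xrcc6 start, with 3 GC boxes, it was 1.04. Brca2 had a ratio of 1.05 and Brca1 of 0.90, with mean signals over the 4 libraries of 2.41 and 11.97. Most of the Brca1 signal lay upstream of its 5′ end, on the side of the neighbouring gene Nbr1. In the 1000 bp upstream and downstream Brca1 had 20.3 and 3.66, and Brca2 1.74 and 3.09. Trp53 had a ratio of 0.49, and its signal was at percentiles 83.4 and 99.0 of all promoters in wild-type and 99.3 and 82.6 in ApcMin/+ libraries. Among the printed genes, CpG content and the level of the mark thus did not follow the same order.

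Of the 42 genes, 34 had a RefSeq promoter within 1000 bp of the 5′ end used, as had 14277 genes in all, whose 14265 distinct symbols are the base of the shares over all promoters. An E2F-type match was carried by 12 of the 34 (35.3%), against 9.93% of all promoters and 13.8% of those whose mean signal reached 2. These were Atm, Bard1, Brca1, Brca2, Chek1, Chek2, Mdc1, Msh6, Pms2, Rnf8, Rnf168 and Xrcc4. CCAAT was found in 21 of 34 (61.8%), against 38.9% of all and 39.7% of marked promoters. CCGGAAG was found in 10 (29.4%) against 13.3% and 22.2%, and GCATGCG in 5 (14.7%) against 5.05% and 7.66%. GC boxes (70.6%) and an observed over expected CpG of at least 0.6 (76.5%) were about as common as at marked promoters generally, where the shares were 69.2% and 81.2%. TATAAA was found in 3 of 34, Atm, Brca2 and Trp53 (8.82%, against 11.2% of all and 6.09% of marked promoters). TGACGTC was found in 2 of 34, Brca2 and Parp2 (5.88%, against 4.50% and 6.37%). The full p53 response element, searched with a spacer of up to 13 bases, was found in 0 of 34 and in 5 of all 14265 promoters. Among the 7490 marked promoters it was found in 0. A match so rare would be missing from 34 promoters in almost any case, so its absence cannot set these genes apart. Only the short window around the RefSeq start was searched, so the count does not show that the genes lack the element elsewhere. A match is a description of the sequence and does not show binding.

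Nearly all of the genes were marked. Of the 42, 40 (95.2%) had a mean signal over the 4 libraries of at least 2, against 45.3% of all protein-coding promoters, and 29 (69.0%) had at least 5, against 29.8%. The median gene had a signal of 6.70, at percentile 79.7 of all promoters. It ranked alike in each library, with median percentiles of 80.9 and 82.1 in wild-type libraries and 79.1 and 79.1 in the ApcMin/+ libraries. Levels ranged from 13.5 at Xrcc4 down to 2.41 at Brca2, and then to 0.58 at Xrcc6 and 0.33 at Mdm4, the 2 genes with no enriched region at the 5′ end. Windows held 1 to 31 fragments in wild-type replicate 1, 2 to 64 in wild-type replicate 2, 2 to 258 in ApcMin/+ replicate 1 and 4 to 92 in ApcMin/+ replicate 2. Single genes in wild-type replicate 1 were therefore measured with the largest counting error.

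**Figure D1:**
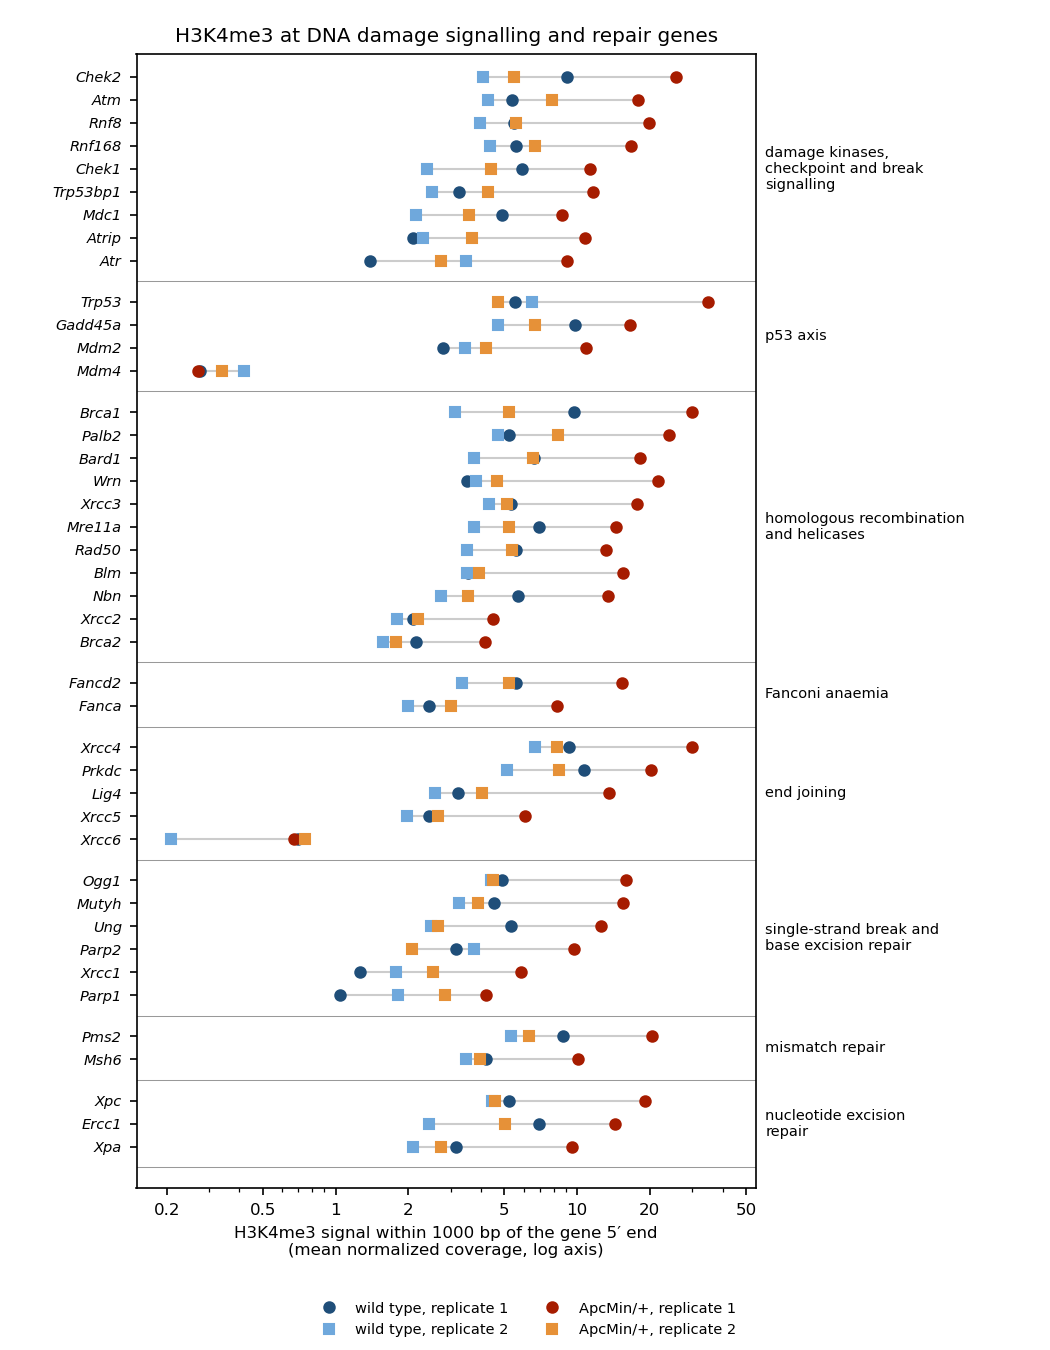
H3K4me3 signal (mean normalized coverage within 1000 bp of the gene 5′ end, log axis) of each of the 42 genes in each of the 4 libraries, ordered by role and then by mean. Points are single libraries and grey lines span their range; ApcMin/+ replicate 1 is the highest library at 40 of the 42 genes, and Mdm4 and Xrcc6 lie far to the left of the rest.

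Among the 9 damage kinases, checkpoint and break signalling genes, all of which were marked, the median signal was 6.02. Chek2, encoding an effector kinase downstream of ATM, had the highest mean, with 9.06 and 4.07 in wild-type libraries and 25.7 and 5.47 in the ApcMin/+ libraries (replicates 1 and 2, as in all pairs below). Atm had 5.40 and 4.27 in wild-type and 17.9 and 7.83 in ApcMin/+ libraries. Both ApcMin/+ values of Atm lay above both wild-type values, whereas for Chek2 the genotypes overlapped. Atr had the lowest mean of the group, with 1.39 and 3.47 in wild-type and 9.06 and 2.74 in ApcMin/+ libraries. Its partner Atrip, which brings ATR to coated single strands, had 2.09 and 2.29 in wild-type and 10.8 and 3.69 in ApcMin/+ libraries, without overlap. Trp53bp1, which favours end joining at breaks, had 3.24 and 2.50 in wild-type and 11.6 and 4.29 in ApcMin/+ libraries. Rnf8, a ubiquitin ligase that builds on MDC1 at breaks, had 5.46 and 3.96 in wild-type and 19.8 and 5.56 in ApcMin/+ libraries. In both the ApcMin/+ values were the higher, but for Rnf8 ApcMin/+ replicate 2 exceeded wild-type replicate 1 only narrowly. Rnf168, Chek1 and Mdc1 had means of 8.34, 6.02 and 4.81.

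In the p53 axis the 4 promoters had means from 0.33 to 12.9. Trp53 had 5.55 and 6.50 in wild-type libraries and 34.8 and 4.72 in the ApcMin/+ libraries. The ApcMin/+ libraries thus held both its highest and its lowest value, 7.37-fold apart. Gadd45a, a p53-induced growth arrest gene, had 9.81 and 4.72 in wild-type and 16.6 and 6.70 in ApcMin/+ libraries. Mdm2, encoding the ubiquitin ligase that targets p53, had 2.79 and 3.44 in wild-type and 10.9 and 4.21 in ApcMin/+ libraries. Gadd45a values overlapped between genotypes and those of Mdm2 did not.

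Mdm4, encoding the p53 inhibitor related to MDM2, had almost no signal at its 5′ end, with 0.27 and 0.42 in wild-type and 0.27 and 0.34 in ApcMin/+ libraries. These values came from 1, 4, 2 and 4 fragments. The 5′ end used belongs to a single coding transcript, and 5231 bp inside the gene lies a cluster of annotated starts where the signal was 6.28 and 2.99 in wild-type and 16.5 and 3.90 in ApcMin/+ libraries. There the fragments numbered 18, 29, 122 and 43. Xrcc6, encoding a subunit of the Ku heterodimer, showed the same arrangement, with 0.70 and 0.21 in wild-type and 0.68 and 0.75 in ApcMin/+ libraries at the gene 5′ end. At a coding start 28534 bp inside, which is also the RefSeq start, the signal was 10.3 and 5.26 in wild-type and 28.2 and 7.66 in ApcMin/+ libraries. Both genes were thus marked, and their low values above belong to the 5′ end that the rule prescribes. Lig4 and Xrcc1 also had a stronger start over 1000 bp inside, at 1387 and 1044 bp, where the mean signal was 6.50 against 5.85 and 3.67 against 2.85 at the 5′ end. With the strongest annotated start in place of the 5′ end, all 42 genes had a mean signal of at least 2.

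**Figure D2:**
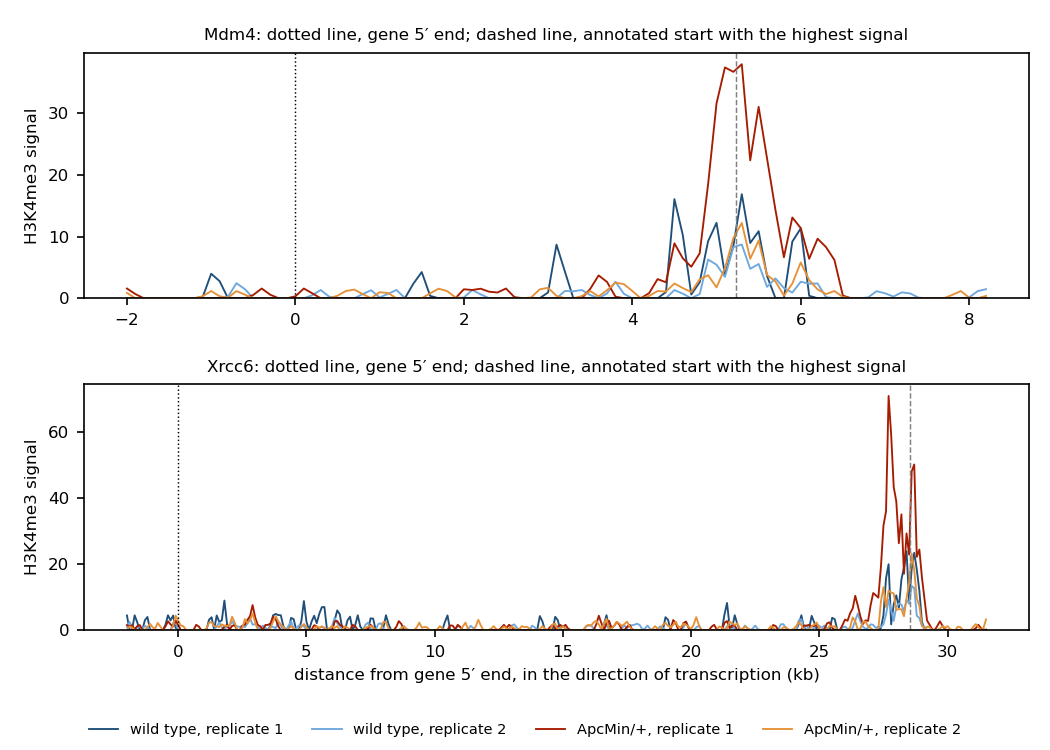
H3K4me3 signal in 100-bp bins along Mdm4 (top) and Xrcc6 (bottom) against the distance from the gene 5′ end in kb, with 1 line per library. The gene 5′ end (dotted line) is near background. In Mdm4 the highest bin is by the inner start (dashed line, 5231 bp inside) in all 4 libraries, and in Xrcc6 (28534 bp inside) in 3, while in ApcMin/+ replicate 1 it is at 27700 bp, by another annotated start at 27684 bp.

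The 11 homologous recombination and helicase genes were all marked, with a median of 7.63. Brca1, encoding a ubiquitin ligase that promotes resection, had the highest mean, with 9.75 and 3.13 in wild-type and 29.8 and 5.21 in ApcMin/+ libraries. Brca2, which loads the recombinase, had the lowest, with 2.16 and 1.56 in wild-type and 4.15 and 1.79 in ApcMin/+ libraries. The genotypes overlapped at both. Palb2, which bridges the BRCA proteins, had 5.23 and 4.69 in wild-type and 24.0 and 8.36 in ApcMin/+ libraries. Wrn, encoding a RecQ helicase, had 3.49 and 3.80 in wild-type and 21.6 and 4.67 in ApcMin/+ libraries. The genotypes overlapped at neither of these. The break sensor genes Mre11a, Rad50 and Nbn had means of 7.63, 6.92 and 6.33, and the recombinase paralogues Xrcc3 and Xrcc2 had 8.14 and 2.63. Bard1, the partner of BRCA1, had 8.79, and the helicase gene Blm had 6.60. Of the Fanconi anaemia genes, which act on interstrand crosslinks, Fancd2 had 5.58 and 3.34 in wild-type and 15.3 and 5.20 in ApcMin/+ libraries. Fanca, of the core complex, had 2.44 and 1.996 in wild-type and 8.24 and 3.02 in ApcMin/+ libraries.

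In end joining, Xrcc4 had the highest mean over the 4 libraries of all 42 genes, with 9.23 and 6.69 in wild-type and 29.8 and 8.22 in ApcMin/+ libraries. Its ligase partner Lig4 had 3.22 and 2.58 in wild-type and 13.5 and 4.05 in ApcMin/+ libraries. The genotypes overlapped at Xrcc4 and not at Lig4. By library, Xrcc4 was the highest of the genes in wild-type replicate 2 alone, Prkdc in wild-type replicate 1 and ApcMin/+ replicate 2, and Trp53 in ApcMin/+ replicate 1. Prkdc, encoding DNA-PKcs, had a mean of 11.1, and Xrcc5, encoding the other Ku subunit, of 3.28. Single-strand break and base excision repair had the lowest median of the roles with more than 2 genes, 5.22. Ogg1, the glycosylase for oxidized guanine, led with 4.88 and 4.38 in wild-type and 16.0 and 4.47 in ApcMin/+ libraries. Parp1, the main break-sensing poly(ADP-ribose) polymerase, had 1.05 and 1.82 in wild-type and 4.19 and 2.84 in ApcMin/+ libraries. Its paralogue Parp2 had 3.14 and 3.75 in wild-type and 9.74 and 2.08 in ApcMin/+ libraries, so that ApcMin/+ replicate 2 was below both wild-type libraries. Mutyh, Ung and the scaffold gene Xrcc1 had means of 6.80, 5.76 and 2.85.

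Of the mismatch repair genes, Pms2 had 8.72 and 5.31 in wild-type and 20.5 and 6.30 in ApcMin/+ libraries, and Msh6 had 4.18 and 3.48 in wild-type and 10.1 and 3.98 in ApcMin/+ libraries. Of the nucleotide excision repair genes, the damage sensor Xpc had 5.23 and 4.45 in wild-type and 19.0 and 4.58 in ApcMin/+ libraries. Xpa, a verification factor, had 3.14 and 2.09 in wild-type and 9.50 and 2.74 in ApcMin/+ libraries. In each of these 4 genes ApcMin/+ replicate 2 lay between the wild-type libraries. Ercc1, a subunit of the incision nuclease, had a mean of 7.19.

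A large share of the genes shared their promoter region with a neighbour. For 17 of 42 (40.5%) the 5′ end of another protein-coding gene on the opposite strand lay within 1000 bp, against 10.9% of all promoters and 21.5% of the 9930 whose mean signal reached 2. The pairs were Atm with Npat, Chek2 with Hscb, Trp53 with Wrap53, Brca1 with Nbr1, Palb2 with Dctn5, Mre11a with Ankrd49, Xrcc3 with Zfyve21, Wrn with Purg and Fancd2 with Emc3. The others were Xrcc4 with Tmem167, Lig4 with Abhd13, Prkdc with Mcm4, Parp2 with Ccnb1ip1, Xrcc1 with Pinlyp, Mutyh with Toe1, Pms2 with Aimp2 and Xpc with Lsm3. Partners include Npat, a regulator of histone genes, Mcm4, a subunit of the replicative helicase, and Wrap53, which makes an antisense transcript to Trp53. The signal in such a window cannot be assigned to a gene of the pair. With genes of any type counted, 21 of 42 (50%) had such a neighbour, against 18.4% of all and 32.7% of marked promoters. Atr, Rnf8, Gadd45a and Ogg1 had only a neighbour that is not protein-coding, and are counted below as without a partner.

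The position of the mark differed with the presence of a coding partner. Genes with a partner had a median signal of 8.38, against 8.63 over all marked promoters with a partner. Of the genes with a partner, 12 of 17 (70.6%) had more signal in the 1000 bp upstream of their 5′ end than in the 1000 bp downstream. Among all marked promoters with a partner that share was 47.3%. The 25 genes without a coding partner had a median signal of 5.42, against 5.79 over all marked promoters without a coding partner. Of the 25, 3 (12%) were higher upstream, namely Blm and the almost unmarked 5′ ends of Mdm4 and Xrcc6. Among the 23 with a mean signal of at least 2 it was 1 (4.35%), against 16.6% of marked promoters without a partner. The most upstream-weighted was Fancd2, with a mean of 12.98 upstream and 1.74 downstream. Brca1 followed with 20.3 and 3.66, Lig4 with 10.2 and 1.54, and Mutyh with 11.1 and 2.52. In these 4 genes most of the signal counted for the repair gene lay on the side of Nbr1, Emc3, Abhd13 or Toe1. Trp53 was balanced, with 12.5 upstream and 13.3 downstream. Nbn and Rnf168, without a partner, were among the most downstream-weighted, with 0.59 against 12.1 and 0.97 against 15.7.

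**Figure D3:**
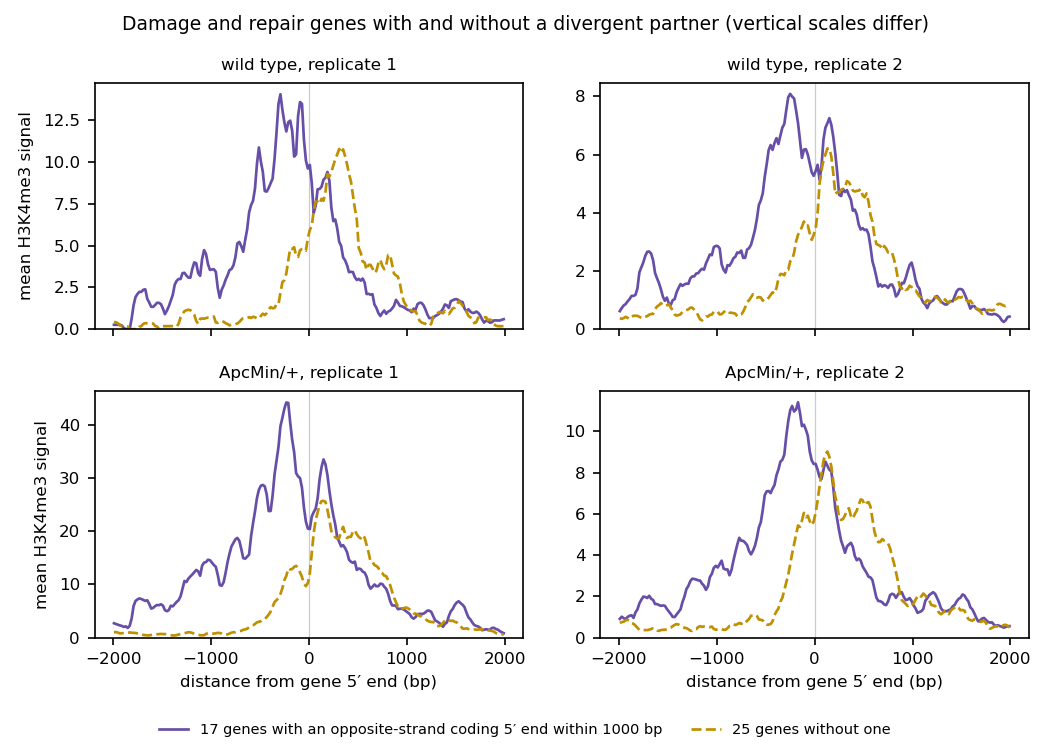
Mean H3K4me3 signal in 20-bp bins against distance from the gene 5′ end (bp) in each library, for the 17 genes with an opposite-strand coding neighbour (solid) and the 25 without (dashed); vertical scales differ between panels. In every library the highest upstream bin exceeds the highest downstream bin in the first set, by 1.11-fold to 1.43-fold, and is 0.51 to 0.67 of it in the second.

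Averaged over all 42 genes, the profile had a maximum 120 to 199 bp downstream of the 5′ end and a smaller one upstream. The upstream maximum was 0.89, 0.73, 0.89 and 0.90 of the downstream maximum in the 4 libraries, against 0.63 to 0.70 over all marked promoters. Enriched regions at the genes were somewhat shorter than at marked promoters in general, with a median of 1650 bp (range 600 to 5600) against 2000 bp. The longest, at Xrcc3, Trp53 and Pms2 (5600, 4300 and 3700 bp), belong to genes with a partner.

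**Figure D4:**
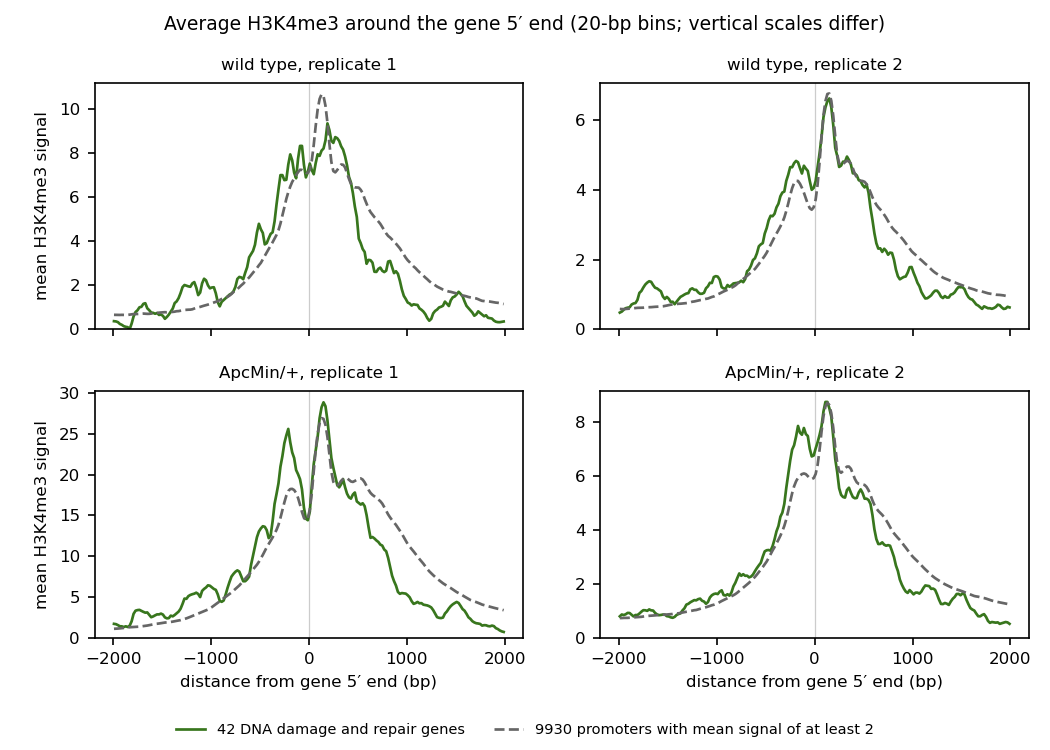
Mean H3K4me3 signal in 20-bp bins against distance from the gene 5′ end (bp) in each library, over the 42 genes (solid) and over the 9930 promoters whose mean signal reached 2 (dashed); vertical scales differ between panels. The 42 genes show a higher shoulder upstream and a steeper fall beyond 500 bp downstream.

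As deposited, the signal of the genes was higher in ApcMin/+ than in wild-type libraries, but most of this difference came from ApcMin/+ replicate 1. The mean over the 42 genes was 4.78 and 3.29 in wild-type libraries and 14.3 and 4.42 in the ApcMin/+ libraries. ApcMin/+ replicate 2 thus lay between the wild-type libraries. The group means were 4.03 ± 1.05 and 9.37 ± 7.01 (SD, n = 2), a log2 ratio of 1.22, with p = 0.667 in a two-sided exact permutation test that cannot give less than 0.333 here. Of the 42 genes, 41 had the higher mean in ApcMin/+, as had 70.6% of all promoters and 99.2% of the 9930 tested. In 15 of 42 both ApcMin/+ libraries exceeded both wild-type libraries, as in 26.0% of all and 38.5% of tested promoters. In 0 of 42 both were lower, as in 0.161% of tested promoters. ApcMin/+ replicate 2 by itself lay above both wild-type libraries in 16 of 42 genes (38.6% of tested promoters) and below both in 2, Trp53 and Parp2 (9.11%). The median log2 difference, on the log2(signal + 1) scale, was 0.88 over the genes and 0.85 over all tested promoters. Without ApcMin/+ replicate 1 the median over the genes was 0.14, with 30 of 42 higher in ApcMin/+ (66.5% of tested promoters).

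None of the 40 genes that entered the test passed it (limma with a trend, Benjamini-Hochberg over 9930 promoters, 0.0% of which passed). The smallest adjusted p among them was 0.683, and 0 had an unadjusted p under 0.05, against 1.33% of tested promoters. Of the 40, 4 (Brca2, Xrcc2, Xrcc1 and Parp1) had a wild-type mean under 2 and entered only through their ApcMin/+ values. The intervals were wide. For Trp53 the log2 difference was 1.03 with a 95% interval of -1.40 to 3.46, for Atm it was 1.15 (-1.18 to 3.48) and for Brca1 1.05 (-1.35 to 3.46). Centred, the differences of these genes were 0.18, 0.30 and 0.20. These intervals hold both a fall and a severalfold rise, so the test does not show that the genes were alike in the genotypes. When ApcMin/+ replicate 2 was left out, so that the genotype rested on ApcMin/+ replicate 1 alone, 32 genes passed, beside 65.2% of tested promoters.

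After centring, the differences lay on both sides of zero. The median centred log2 difference was 0.03 over the genes and -0.01 over tested promoters, with 24 of 42 genes higher (48.8% of tested promoters). In 6 genes, Atm, Atrip, Trp53bp1, Rnf8, Palb2 and Lig4, both ApcMin/+ libraries lay above both wild-type libraries (13.1% of tested and 5.97% of all promoters). In 3, Brca2, Pms2 and Xpa, both lay below (14.3% and 21.1%). The largest centred differences were 0.51 ± 0.29 (SE) at Palb2, 0.43 ± 0.28 at Wrn and 0.37 ± 0.35 at Atrip. The smallest among tested genes were -0.48 ± 0.34 at Parp2 and -0.44 ± 0.52 at Brca2. Mdm4 and Xrcc6, at -0.90 and -0.60, were lower still, with mean signals of 0.33 and 0.58 at the 5′ end, and were not tested. As deposited their differences were -0.044 and 0.26. Centring took the same amount from every gene, so genes with little signal came out low. The 12 genes picked as silent in this tissue had a median of -0.17 as deposited and -1.02 centred. None of the genes passed the test (limma, smallest adjusted p 0.9995), with 0.121% of tested promoters doing so, and 0 had an unadjusted p under 0.05 (2.96%). The difference between wild-type replicates on this scale had a median size of 0.31 over the genes, that between ApcMin/+ replicates 0.28, and that between genotypes 0.17. The genotype difference is between group means, which vary less than the single libraries behind the replicate differences. In 5 of 42 genes (11.9%) the genotype difference was larger than both replicate differences, as in 16.0% of tested promoters.

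**Figure D5:**
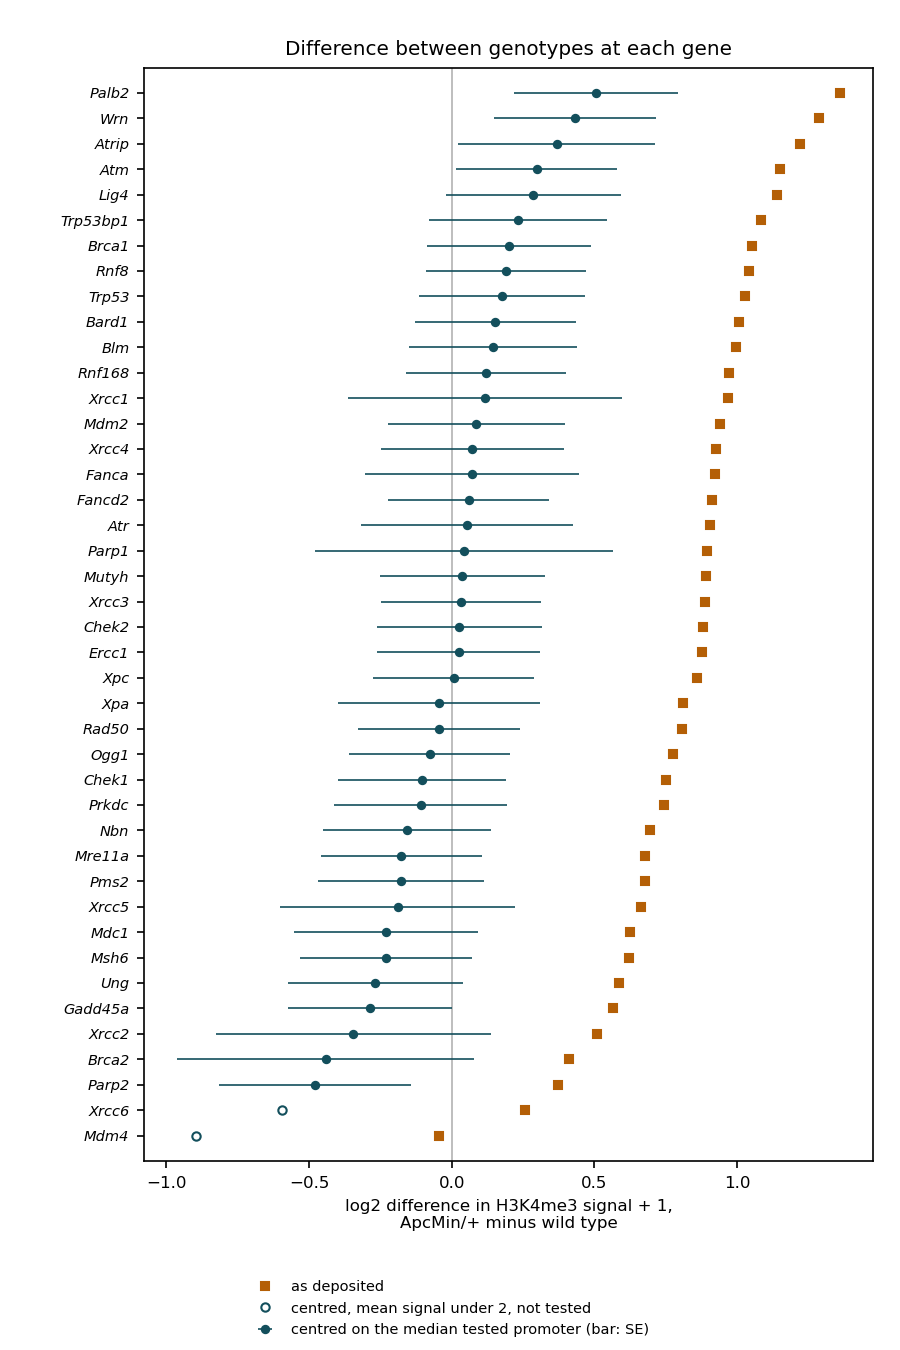
Log2 difference in H3K4me3 signal + 1, ApcMin/+ minus wild type, for each of the 42 genes as deposited (squares) and after centring each library on its median tested promoter (circles, bars are SE; open circles, mean signal under 2 and not tested). Squares lie to the right of zero for 41 genes, while circles fall on both sides of it, 24 to the right.

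By role, the median difference as deposited ran from 0.65 in mismatch repair to 0.97 in the damage kinases, checkpoint and break signalling genes. After centring, the damage kinases, checkpoint and break signalling genes had a median centred difference of 0.12, with 7 of 9 above zero. Homologous recombination had 0.03 (6 of 11), Fanconi anaemia 0.06 (2 of 2) and nucleotide excision repair 0.01 (2 of 3). Base excision repair had -0.02 (3 of 6), the p53 axis -0.10 (2 of 4), end joining -0.11 (2 of 5) and mismatch repair -0.20 (0 of 2). The p53 axis and end joining medians include the untested, almost unmarked 5′ ends of Mdm4 (-0.90) and Xrcc6 (-0.60). The tested genes of the p53 axis were Trp53 at 0.18, Mdm2 at 0.086 and Gadd45a at -0.29, so the sign of its median rests on Mdm4. The role medians are of signed differences, in which opposite signs cancel, so they cannot be set against the unsigned replicate differences above.

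Other genes of the same pathways gave a similar picture. Of 85 further repair and checkpoint genes, 75 (88.2%) had a mean signal of at least 2, with a median of 5.53. After centring 50 of the 85 were higher in ApcMin/+, beside 48.8% of tested promoters and 5055 of all 21938. The median difference was 0.89 as deposited and 0.04 centred. The highest were Rnf169, at 0.73, and Ppm1d, encoding a phosphatase that turns off damage signalling, at 0.62. Rnf169 had 0.35 and 0.96 in wild-type and 5.41 and 2.73 in ApcMin/+ libraries, so that it reached the mean of 2 needed for the test only through the latter, and Ppm1d had 1.57 and 2.52 in wild-type and 12.96 and 4.004 in ApcMin/+ libraries. The lowest, Msh4 and Rbbp8 (both -1.05), had mean signals of 0.46 and 0.39, near background. As deposited no gene of this list was below -0.19, so these low values come mostly from centring. Of the 75 that entered the test, none passed it (limma). As deposited 2 had an unadjusted p under 0.05, beside 1.33% of tested promoters, and after centring 1 had, beside 2.96%. Of 25 p53 target genes, 21 (84%) had a mean signal of at least 2, and the median difference was 0.86 as deposited and 0.00 centred. After centring 13 of the 25 were above zero, beside 48.8% of tested promoters. Gadd45g and Gadd45b, relatives of Gadd45a, were highest at 0.46 and 0.30, with 4.80 and 4.11 in wild-type and 23.4 and 6.49 in ApcMin/+ libraries for Gadd45g. The lowest were Cdkn1a, encoding the cell cycle inhibitor p21, and Eda2r, at -1.03 and -0.96, with mean signals of 0.82 and 0.39 at the gene 5′ end. As for Msh4 and Rbbp8, signal at other annotated starts is not given, so these values do not show that the genes were unmarked. Here too the low values come mostly from centring, since the lowest difference of this list as deposited was -0.18. Of the 21 that entered the test, none passed it, and 0 had an unadjusted p under 0.05 with either scaling (1.33% of tested promoters as deposited, 2.96% centred).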

How the data were processed

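The authors trimmed CUT&RUN read pairs with Novocraft, aligned them to mm10 with Bowtie2, used Picard to remove duplicates and samtools to drop reads with MAPQ below 10, and retained fragments between 150 and 500 bp long. The deposited values are signal, coverage per base written by HOMER, which the authors brought to a total of 10000000 tags and adjusted for fragment length (mean 154.9 to 171.1 bp). Count models were not applied to them. Fragment numbers are the summed signal of a window over the signal that 1 tag contributes.

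Signal was averaged within 1000 bp of the 5′ end of each gene (GENCODE M21, 21 chromosomes). Promoters with a mean of at least 2 entered a two-sided limma fit (3.58.1, trend, R 4.3.3) of genotype on log2(signal + 1), and Benjamini-Hochberg adjusted p-values under 0.05 passed. Enriched regions were 100-bp bins whose mean over the tracks reached 5 times its genome-wide value, joined over gaps up to 500 bp and kept from 300 bp. An opposite-strand partner was the 5′ end of another protein-coding gene within 1000 bp, unless genes of any type are named. Upstream and downstream signal were means over the 1000 bp on each side. Python 3.11.15 with numpy 2.4.6, pandas 2.3.3 and scipy 1.17.1 did the rest. Promoter sequences are from RefSeq (GRCm38.p6).

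Replicates are separate mice by the methods, 2 per genotype. The genes and gene lists were chosen with earlier results of these data known. Full values are given for the highest and lowest gene of each role, the 3 largest and 3 smallest centred differences, genes without overlap after centring, the p53 axis, Atm, Atr, Brca1 and Brca2, and for the other lists the 2 largest differences each way. On simulated data with 200 of 9930 promoters changed 4-fold, the test recovered 81% with 3 false calls. With a library raised 3-fold it recovered 0% as deposited, with 0 false calls, and 89.5% centred, with 8. The spread between simulated libraries was set in advance and not estimated from these data. The largest centred log2 difference among the genes was 0.51, far below a 4-fold change, so the simulation does not give the power for differences of that size. Alternatives were other scalings, filters, pseudocounts, windows and starts, a replicate block and leaving out each library. H3K9me3, total H3, no-antibody and RNA libraries were not analysed here.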

Additional observations from a re-analysis of the deposited data

How the results depend on the processing

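Over the 26 genes with full values, no direction or call changed with another filter on low signal or another pseudocount. Scaling decided the direction of small differences, since the median difference of tested promoters was 0.85 (log2) before centring. Centred, 12 promoters passed the test and 6 genes were higher without overlap, beside 1299 of 9930 tested promoters. The median over all 42 genes was 0.030, with 24 of them higher against 41 before centring. Among the 26 with full values, 8 differences became negative: Gadd45a -0.29, Brca2 -0.44, Xrcc6 -0.60, Parp2 -0.48, Ogg1 -0.077, Msh6 -0.23, Pms2 -0.18 and Xpa -0.043. After quantile normalization 2 promoters passed and 6 genes were higher without overlap, beside 1469 of 9930 tested promoters. The median over 40 genes was then -0.0042, with Atr at -0.030, Gadd45a -0.26, Brca2 -0.32, Parp2 -0.58, Ogg1 -0.14, Msh6 -0.23, Pms2 -0.20, Xpa -0.039 and Xpc -0.059. Mdm4 was at 0.034 when scaled to background, 0.18 with a window of 500 bp and 0.78 at its strongest start, and Xrcc6 was at -0.17 with a window of 2000 bp. At their gene 5′ ends the 2 genes had 1 to 8 fragments per library.

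Replicate numbers are shared between genotypes, but nothing in the labels ties mice of the same number, and the deviations of same-numbered libraries correlated at 0.20 over 9930 promoters. With a replicate block, 1 promoter passed the test. With the block and centring together, an alternative chosen after seeing the data, 15 did. There 6 genes were higher without overlap, beside 1299 of 9930 tested promoters. The differences are those of the centred fit, with the same median of 0.030, and 0 of the 42 genes passed with the block.

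Leaving out a library, as deposited or centred, gave 0 to 6479 promoters and 0 to 32 genes past the threshold, the upper ends without ApcMin/+ replicate 2, where the lone ApcMin/+ library was assumed to vary like the wild type. The median over the genes ranged from -0.039 to 1.55 and the log2 ratio of mean signal from 0.13 to 1.83. The number of genes higher without overlap ranged from 12 to 40, beside 2864 to 9817 of the 9930 tested promoters. Single differences ranged from -0.62 to 1.62 for Atr, -0.27 to 1.91 for Chek2, -0.42 to 2.35 for Trp53, -0.25 to 1.53 for Mdm2, -1.66 to 0.033 for Mdm4 and -0.52 to 1.16 for Gadd45a. They ranged from -0.27 to 2.21 for Brca1, -0.73 to 0.85 for Brca2, -0.018 to 1.61 for Fancd2, -0.056 to 1.52 for Fanca, -0.071 to 1.79 for Xrcc4 and -1.36 to 0.50 for Xrcc6. They ranged from -0.47 to 1.13 for Parp1, -0.80 to 1.28 for Parp2, -0.24 to 1.59 for Ogg1, -0.38 to 1.20 for Msh6, -0.27 to 1.45 for Pms2, -0.061 to 1.56 for Xpa and -0.19 to 1.78 for Xpc. The cause of these shifts was not tested.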
